A study of Arabidopsis thaliana with 9 samples.

Results

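Of 21430 Arabidopsis thaliana loci measured on arrays in cells sorted as quiescent centre (QC) cells, 76 were taken as a group that was higher 4 h after release of the transcription factor PLT2, with a small difference at 1 h. A locus belonged to the group where its mean log2 level at 4 h exceeded the mock mean by at least 0.7, its lowest 4 h array lay above its highest mock array, and its 1 h mean was within 0.3 of the mock mean. In all, 242 loci passed the first condition and 227 of them the second. At 1 h, 149 of these 227 were at least 0.3 above mock, 78 lay within 0.3 and 0 were at or below -0.3. Of these 78, 2 were left out by name, AT2G33230 and the B-type cyclin gene CYCB1;3 (AT3G11520). The members were thus chosen by their own differences from mock at 4 h and 1 h, and these are given as a description with no test.

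The plants were plt1 plt2 double mutants carrying PLT2-GR, a complementing PLT2 protein joined to a glucocorticoid receptor domain and driven by the PLT2 promoter, and a GFP reporter driven by the WOX5 promoter for sorting. Seedlings 5 days old were placed on solvent for 1 h (mock), on 10 µM dexamethasone for 1 h, or on 10 µM dexamethasone for 4 h, with 3 arrays in each group. All 3 groups therefore shared the mutant background, the construct, the reporter and an enzymatic digestion of the root tips before sorting. No mock array was kept on solvent for 4 h, so dexamethasone and the longer time on the new plate cannot be told apart. No array came from treated plants without the construct, and the sources do not say whether several transgenic lines were used.

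PLT2 is an AP2-type transcription factor that acts in a graded way in the root tip, where high levels maintain the stem cell niche and lower levels permit division and then differentiation. A fusion to the glucocorticoid receptor stays in the cytoplasm until dexamethasone lets it enter the nucleus, so early samples catch transcripts that respond quickly and later samples also catch those that follow other changes. The QC itself divides rarely and keeps the stem cells next to it undifferentiated.

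Levels are log2 values, so that a difference of 1 is a doubling, and errors after ± are standard errors from a limma model over all 9 arrays unless marked SD. A locus was called where its two-sided p, adjusted by the Benjamini-Hochberg method over all loci, was under 0.05. PLT2 itself differed by -0.02 ± 0.16 between 4 h and mock and PLT1 by 0.09 ± 0.09, and neither was called. At 1 h PLT2 was 0.34 and PLT1 0.01 above mock, again not called. The 1 h arrays of PLT2 all lay above its mock arrays, as in 5.73% of all loci. These values do not check nuclear entry of a fusion protein. In mock the QC and niche regulator SCR had a mean log2 level of 8.55, that of AGL42 was 2.88 and that of RCPG, from the root cap, 11.5. Mock means of the 11 measured QC and niche loci ran from 2.88 to 10.8, with a median of 6.16. WOX5, whose promoter drove the sorting reporter, was in this list but not among the measured loci. Of the QC and niche list, 2 of 11 measured loci were called up at 4 h, and 1 without 4 h replicate 1. Of the marker lists of neighbouring tissues, 1 of 10 root cap loci was called up, while 2 of 11 in epidermis and root hair, 1 of 10 in endodermis and cortex and 4 of 16 in xylem and phloem were called down, where 5.53% of all loci were called up and 5.23% down. Without 4 h replicate 1 these counts, in the same order, were 0, 1, 0 and 1. The median 4 h differences of the 4 lists were -0.35, -0.16, -0.33 and -0.20. The called root cap locus was FEZ, at 0.97 ± 0.24, and it was already 1.03 above mock at 1 h. In the root cap list 7 loci had an unadjusted limma p under 0.05, counting both directions. No share over all loci is given for that count, so nothing is read from it. Mock means below 3.59, the first quartile over all loci, were found for 0 of the root cap, 1 of the epidermis and root hair, 1 of the endodermis and cortex and 3 of the xylem and phloem markers. The mean log2 level of 10 root cap markers spanned 7.01 to 7.44 at 4 h and 7.40 to 7.54 in mock. For 10 endodermis and cortex markers it spanned 4.12 to 4.44 at 4 h and 4.42 to 4.83 in mock. That of 11 epidermis and root hair markers spanned 5.38 to 5.82 at 4 h and 5.72 to 5.89 in mock, and that of 16 xylem and phloem markers 4.34 to 4.40 at 4 h and 4.49 to 4.68 in mock. Their part in the members' differences was not tested. In sorted bulk cells, more cells of one type and more RNA of a gene per cell cannot be told apart.

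The label of the group as up only at 4 h rests on the limit of 0.3 at 1 h. All 76 members had a 1 h mean above the mock mean, by 0.02 to 0.30 with a median of 0.21, while the median over all loci was -0.01. The 1 h difference was at least 0.2 for 39 members and under 0.1 for 5. Expressed as a share of the 4 h difference it ran from 2.20% to 41.5%, with a median of 25.4%. In 27 of the 76 the lowest 1 h array lay above the highest mock array, where 5.73% of all loci did so. The rule capped the 1 h difference, and the mock arrays that entered the choice at 4 h also enter it, so these values describe the members and nothing is read from their setting beside all loci.

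**Figure D1:**
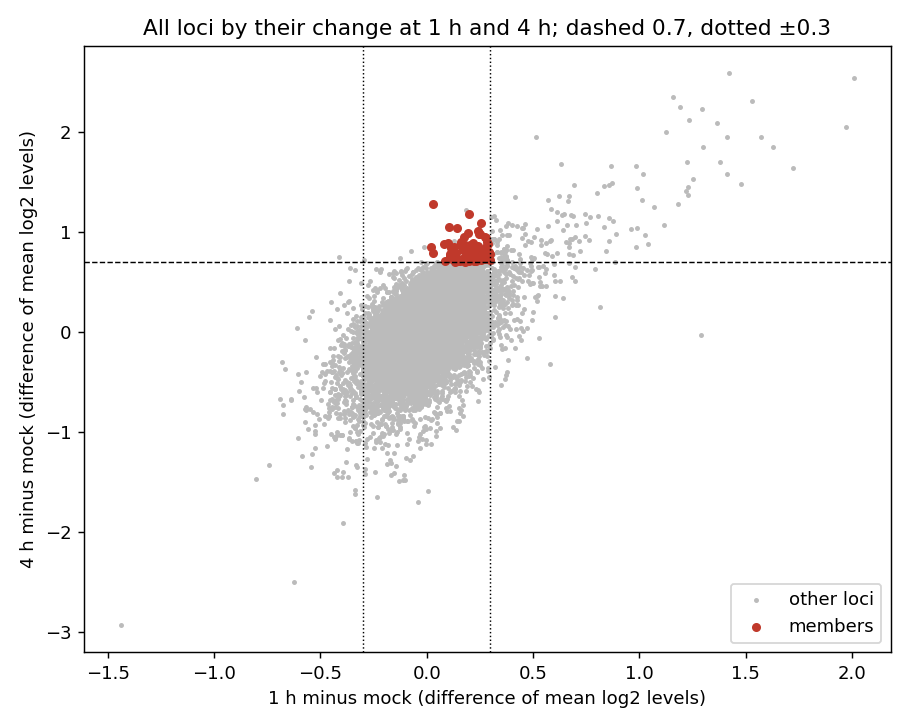
Each point is 1 of 21430 loci, with the 1 h minus mock difference of mean log2 levels on the horizontal axis and the 4 h minus mock difference on the vertical axis. The 76 members (red) lie above the dashed line at 0.7 and between the dotted lines, all of them right of 0.

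At 4 h the members exceeded mock by 0.70 to 1.28, with a median of 0.78, and the median over all loci was 0.01. A difference of at least 1, which is 2-fold, was reached by 6 of them. The limma model called 72 of the 76 up at 4 h, where it called 5.53% of all loci up, and 14.3% of all loci had their lowest 4 h array above their highest mock array. Nothing is read from these counts, since this contrast chose the members. The 4 that were not called were AT3G60650, AT4G33660, TAT3 and hemb2. Against the 1 h arrays, 30 members were called up at 4 h (0.887% of all loci), and in 68 the lowest 4 h array was above the highest 1 h array (11.7% of all loci). The rule fixed a difference above 0.4 between these times, so nothing is read from these counts either. Both comparisons with mock use the same 3 mock arrays.

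The 3 arrays at 4 h did not show the members equally. Relative to the mock means, the median over members was 1.01 on 4 h replicate 1, 0.74 on replicate 2 and 0.63 on replicate 3. On the 1 h arrays these medians were 0.21, 0.19 and 0.21. Replicate 1 was the highest of the 4 h arrays for 53 members, replicate 2 for 15 and replicate 3 for 8. The same order held in the 1113 other loci called up at 4 h, with medians of 0.62, 0.48 and 0.41. Replicate 1 at 4 h also stood apart in the poly-A control RNAs, which had a mean log2 level of 8.79 there and 6.16 to 6.66 on the other 8 arrays. Without this array the median difference of the members was 0.69 and 57 of them were called. The 15 that lost their call were GLV9, AT1G78210, AT5G01670, MYB32, CYP705A12, AT3G55940, ERD10, AT5G10650, AT3G10780, NUC-L2, PSAK, ORG4, AHL7, SIP2 and BUB3.2. The difference shrank by over 1.5 times in 4 members, to 0.75 in GLV9, 0.65 in AT5G01670, 0.59 in AT5G42700 and 0.40 in AT3G60650. The members' SD had a median of 0.24 at 4 h and 0.14 in mock, and over all loci these medians were 0.15 and 0.10.

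**Figure D2:**
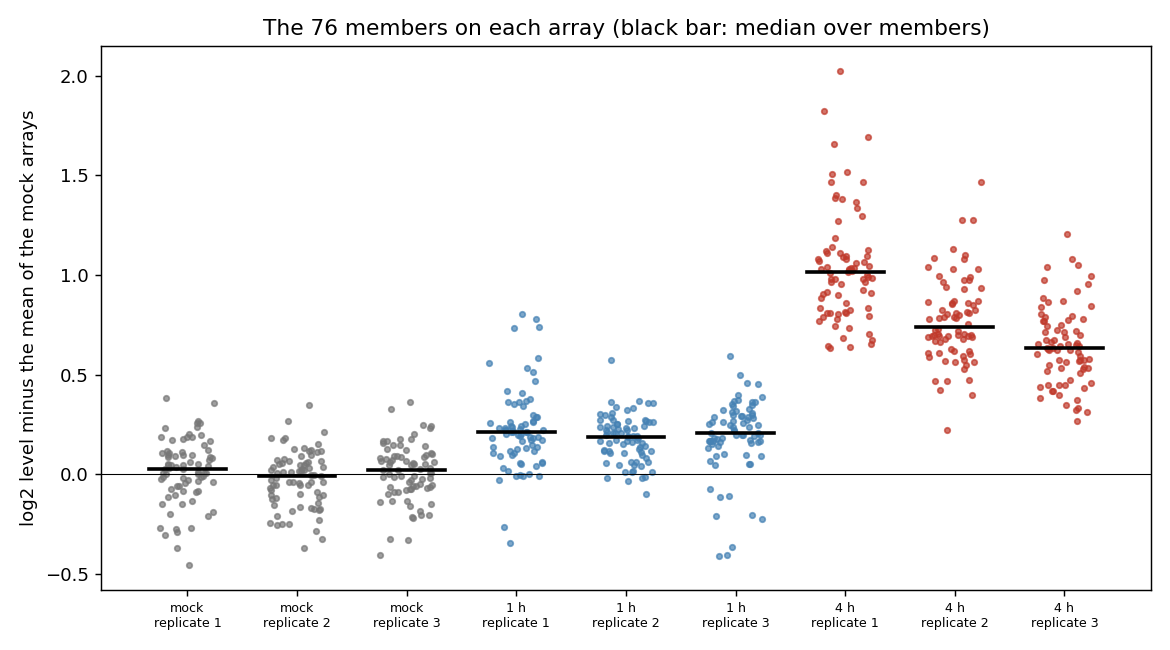
Each point is a member on 1 array, as its log2 level minus its mean over the mock arrays, and black bars are medians over the 76 members. The 4 h medians of 1.01, 0.74 and 0.63 lie above the 1 h medians near 0.2 and the mock medians near 0.

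Roles were given only to members with a symbol. The counts by role leave out the 35 members without a symbol and 3 with a symbol but no role used. Peptide, hormone and calcium signalling was represented by 5 of the members given a role. GLV9 encodes a peptide of the GOLVEN or root growth factor family, secreted peptides that maintain the root meristem and PLT protein levels. In mock GLV9 (AT5G15725) was at 4.65, 4.46 and 4.07, at 1 h at 4.39, 4.50 and 4.89 and at 4 h at 6.42, 5.37 and 4.92. All 4 h arrays lay above the other 6, with replicate 1 far above the rest, and the difference from mock was 1.18 ± 0.32. Without replicate 1 it was 0.75 and GLV9 was not called. The RGF peptides measured beside it, chosen after their values were seen, split into 2 sets. RGF3 rose by 1.37 ± 0.24, RGF4 by 0.91 ± 0.21 and RGF8 by 1.48 ± 0.27 at 4 h, and their 1 h differences were 1.23, 0.48 and 1.48, above the limit that bounds the members. RGF6, RGF7 and RGF9 differed by -0.02, -0.28 and 0.03 and were not called.

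CKX4 encodes a cytokinin oxidase, an enzyme that degrades cytokinin, a hormone that promotes differentiation in the root meristem. CKX4 (AT4G29740) measured 6.10, 6.82 and 6.50 on the mock arrays, 6.84, 6.84 and 6.06 at 1 h and 7.39, 7.75 and 7.43 at 4 h. The 3 arrays at 4 h were the highest of all 9, and the 1 h arrays spanned the whole range of mock. CKX4 was 1.05 ± 0.23 above mock, and none of the other 5 cytokinin oxidases measured was called, with CKX5 at -0.32 (adjusted p 0.16). RGL1 encodes a DELLA protein, a repressor of gibberellin responses, and SLY2 an F-box protein that can target DELLA proteins for degradation. The arrays gave RGL1 (AT1G66350) levels of 4.58, 4.38 and 3.98 in mock, 4.35, 4.58 and 4.68 at 1 h and 5.27, 4.99 and 5.03 at 4 h. SLY2 (AT5G48170) had log2 levels of 6.61, 6.09 and 6.07 in mock, 6.37, 6.38 and 6.35 at 1 h and 7.05, 7.11 and 6.95 at 4 h. For both genes the 4 h arrays were above every mock and 1 h array. RGL1 was 0.78 ± 0.15 above mock and SLY2 0.78 ± 0.13, whereas SLY1, the main F-box protein of this pathway, differed by -0.31 and was not called (adjusted p 0.0826).

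The wider gibberellin list of synthesis, perception and DELLA genes had 5 of 21 measured loci called up and 2 called down at 4 h, with a median difference of 0.05. The other called genes in it were GA3 at 1.49 ± 0.15, KAO2 at 1.05 ± 0.19, RGL3 at 2.23 ± 0.13 and RGL2 at 0.43 ± 0.11, and the fallen ones were GA3OX1 at -0.77 ± 0.17 and GA3OX2 at -0.62 ± 0.13. Over all loci 5.53% were called up and 5.23% down. Only RGL1 of this list is a member. CML41, a calmodulin-like protein that binds calcium, was 0.87 ± 0.18 above mock. In mock CML41 (AT3G50770) was at 4.20, 3.93 and 4.02, at 1 h at 4.26, 4.22 and 4.14 and at 4 h at 5.39, 4.52 and 4.85. Replicate 1 was the highest 4 h array and replicate 2 the nearest to the 1 h arrays.

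**Figure D3:**
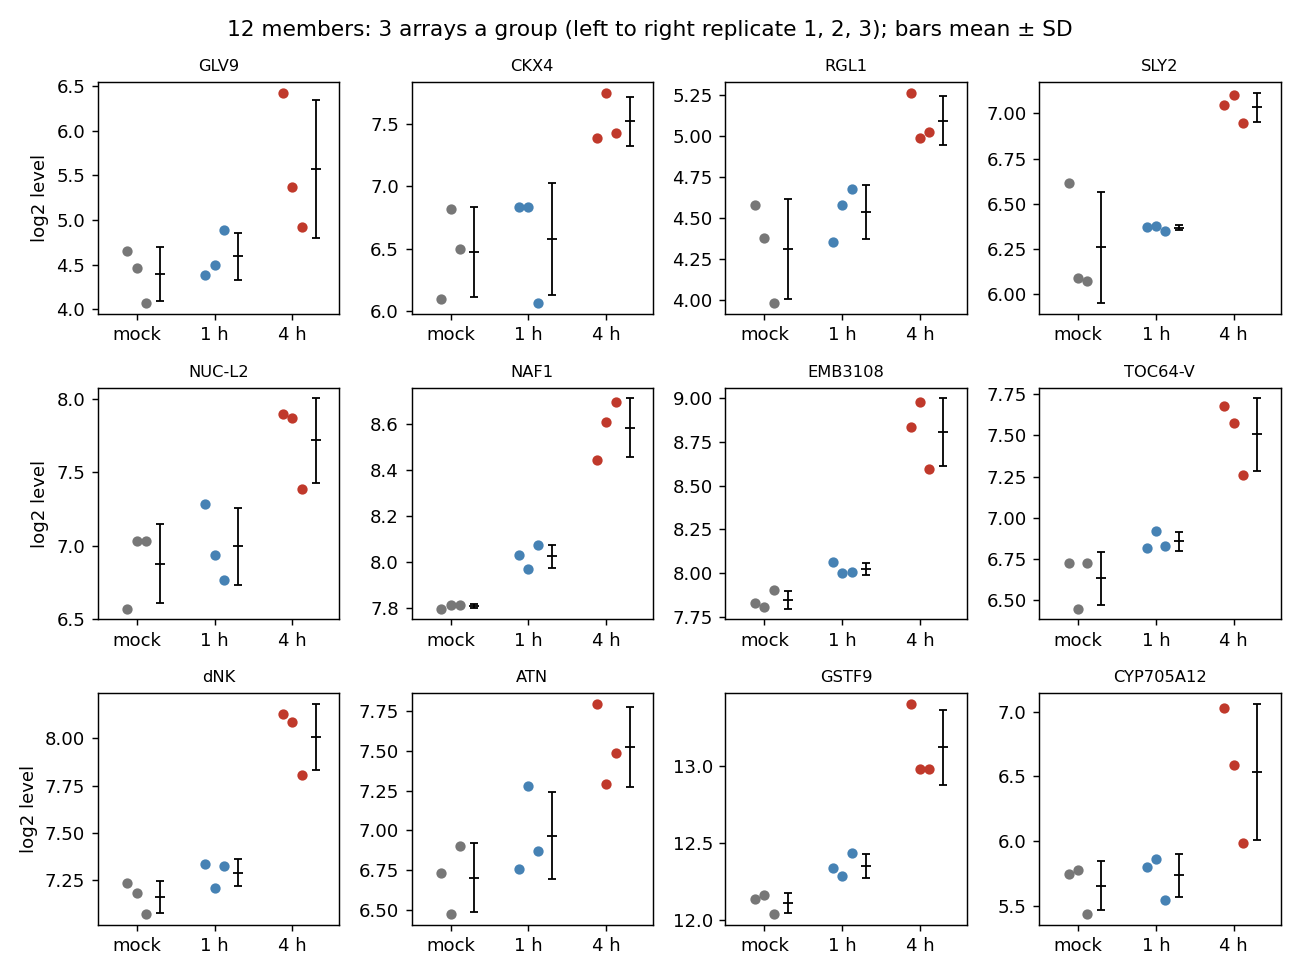
Log2 levels of 12 members on the 3 arrays of mock, 1 h and 4 h (points left to right are replicates 1 to 3), with the mean and SD beside them. In every panel the 4 h points lie above all mock points, while the spread among 4 h arrays differs between genes, for example an SD of 0.77 in GLV9 and 0.08 in SLY2.

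Transcription and chromatin were represented by MYB32, AHL7, IMB1 and NRPE7. MYB32 belongs to subgroup 4 of the R2R3 MYB factors, which repress genes of phenylpropanoid synthesis. MYB32 (AT4G34990) measured 5.93, 5.83 and 5.67 on the mock arrays, 6.39, 5.92 and 5.98 at 1 h and 7.20, 6.85 and 6.08 at 4 h. Replicate 3 at 4 h lay within the range of the 1 h arrays and the other 4 h arrays above it, for a difference of 0.90 ± 0.24. Among its relatives, MYB3 fell by 1.03 ± 0.12 and MYB7 by 0.57 ± 0.13 in the same comparison, and MYB4, at -0.60, was not called. AHL7, with an AT-hook motif that binds DNA, was 0.77 ± 0.18 above mock. The arrays gave AHL7 (AT4G00200) levels of 6.84, 6.48 and 6.05 in mock, 6.80, 6.44 and 6.80 at 1 h and 7.25, 7.28 and 7.16 at 4 h. Mock replicate 1 reached the 1 h levels and stayed below all 4 h arrays. IMB1, a bromodomain protein that binds acetylated histones, differed by 0.72 ± 0.10, and NRPE7, a subunit of the plant-specific RNA polymerase V, by 0.72 ± 0.12.

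Ribosome and RNA genes formed a set of 6 among the members given a role. NAF1 takes part in assembling H/ACA particles, which modify ribosomal RNA, and its arrays were among the tightest of the members. NAF1 (AT1G03530) had log2 levels of 7.80, 7.82 and 7.81 in mock, 8.03, 7.97 and 8.07 at 1 h and 8.44, 8.61 and 8.70 at 4 h. The groups did not overlap at any step, and the 4 h difference was 0.77 ± 0.08. Core proteins of the same particle, chosen after their values were seen, rose too, NAP57 by 0.53 ± 0.08 and NOP10 by 0.59 ± 0.13. NUC-L2 encodes a nucleolin, a protein of the nucleolus where ribosomes are made. In mock NUC-L2 (AT3G18610) was at 6.57, 7.03 and 7.03, at 1 h at 7.28, 6.93 and 6.76 and at 4 h at 7.90, 7.87 and 7.39. Its 4 h arrays lay above all others, by 0.84 ± 0.18 over mock, and NUC-L1, the more studied nucleolin, rose by 0.36 ± 0.10.

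RRP4, a subunit of the RNA-degrading exosome, was 0.77 ± 0.13 above mock. RRP4 (AT1G03360) measured 7.97, 7.59 and 7.74 on the mock arrays, 8.01, 8.00 and 7.92 at 1 h and 8.83, 8.36 and 8.43 at 4 h. Replicate 1 was the highest 4 h array and all 3 lay above the 1 h arrays. Exosome subunits RRP41 and RRP41L, the only others looked at, differed by 0.44 and 0.53 and were not called (adjusted p 0.0729 and 0.0544). TOZ, a WD-repeat protein needed for normal division planes in the embryo, was 0.73 ± 0.12 above mock. The arrays gave TOZ (AT5G16750) levels of 7.67, 7.54 and 7.65 in mock, 7.90, 7.84 and 7.68 at 1 h and 8.63, 8.24 and 8.19 at 4 h. As in RRP4, the 4 h arrays were the 3 highest, led by replicate 1. ATRPAC42, a subunit shared by RNA polymerases I and III, was 0.72 ± 0.11 above mock, and NRPA1 and NRPA2, the large subunits of RNA polymerase I, rose by 0.64 ± 0.11 and 0.66 ± 0.09. STRS2, a DEAD-box RNA helicase that restrains stress responses, was 0.71 ± 0.09 above mock, and its relative STRS1 rose by 0.39 ± 0.10. A list of 10 ribosome biogenesis genes without members had 9 measured, and all 9 were called up at 4 h, against 5.53% of all loci. Their median difference was 0.50, and 7 were called up without 4 h replicate 1. The list was chosen with earlier results of these data known and may hold relatives named above, so it is no separate support.

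Proteins of plastids, mitochondria and peroxisomes numbered 10 among the members given a role. EMB3108 is a DEAD-box RNA helicase of the plastid and RFC3 a plastid ribosomal protein. EMB3108 (AT1G59990) had log2 levels of 7.83, 7.81 and 7.91 in mock, 8.07, 8.00 and 8.01 at 1 h and 8.84, 8.98 and 8.60 at 4 h. In mock RFC3 (AT3G17170) was at 6.12, 5.88 and 6.18, at 1 h at 6.26, 6.36 and 6.38 and at 4 h at 7.24, 6.87 and 6.92. In both genes the 3 arrays of 4 h lay well above the 1 h arrays, which in turn lay above mock, and the 4 h differences were 0.95 ± 0.10 and 0.95 ± 0.12. TOC64-V, an import receptor of the mitochondrial outer membrane, was 0.87 ± 0.12 above mock. TOC64-V (AT5G09420) measured 6.73, 6.45 and 6.73 on the mock arrays, 6.82, 6.92 and 6.83 at 1 h and 7.68, 7.57 and 7.26 at 4 h. The 4 h arrays were the 3 highest, and 1 h lay slightly above mock. Its plastid relative TOC64-III differed by 0.31 (adjusted p 0.0764).

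Other organelle members cover translation, metabolism and transport. APG3 is a plastid peptide release factor (0.78 ± 0.17), CPZ the plastid tRNase Z that trims the ends of tRNAs (0.75 ± 0.13), and CS26 a plastid enzyme of sulfur metabolism (0.78 ± 0.08). TAAC carries adenine nucleotides across plastid membranes (0.71 ± 0.14). The other 3 tRNase Z genes, TRZ1, TRZ3 and TRZ4, differed by 0.39, 0.44 and 0.29 and were not called (adjusted p 0.0615, 0.0651 and 0.111). PSAK is a subunit of photosystem I. The arrays gave PSAK (AT1G30380) levels of 5.24, 4.88 and 5.28 in mock, 5.25, 5.27 and 5.39 at 1 h and 6.50, 5.85 and 5.52 at 4 h. Its replicate 3 at 4 h was close to the highest 1 h array, the difference was 0.82 ± 0.21, and none of 11 other photosystem I genes was called. PSAL, at 0.40, was the highest of these. PEX11D acts in the multiplication of peroxisomes and was 0.78 ± 0.11 above mock, and the other 4 PEX11 genes were not called, with PEX11A at -0.29. hemb2 is a homologue of the tetrapyrrole enzyme ALA dehydratase. hemb2 (AT1G44318) had log2 levels of 6.38, 6.41 and 6.33 in mock, 6.11, 6.73 and 6.97 at 1 h and 7.15, 6.59 and 7.58 at 4 h. Its 4 h arrays overlapped those of 1 h, its difference of 0.73 ± 0.25 was not called, and HEMB1 differed by 0.08.

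Division, cytoskeleton and nucleotide supply accounted for 5 of the members given a role. ATN, known as TANGLED, marks the cortical division site where the new cell plate will attach. In mock ATN (AT3G05330) was at 6.73, 6.47 and 6.90, at 1 h at 6.76, 7.28 and 6.87 and at 4 h at 7.80, 7.29 and 7.48. The 4 h arrays were the highest, with 1 h replicate 2 close below, and the difference was 0.82 ± 0.17. Partners of TANGLED at the division site were not called, POK1 at 0.00, POK2 at 0.07 and AIR9 at 0.34 (adjusted p 0.0769 for AIR9). BUB3.2 is a homologue of a spindle checkpoint protein, which delays separation of chromosomes until they are attached. BUB3.2 (AT1G49910) measured 6.03, 5.77 and 6.26 on the mock arrays, 6.16, 6.19 and 6.41 at 1 h and 6.83, 6.89 and 6.47 at 4 h. Replicate 3 at 4 h lay just above the highest 1 h array. It was 0.71 ± 0.15 above mock, MAD2 rose by 0.68 ± 0.12 and BUB3.1 by 0.31 ± 0.09, and BUBR1, at 0.61, was not called (adjusted p 0.0504). A list of 16 measured G2 and mitosis genes, MAD2 among them, had 11 called up at 4 h, against 5.53% of all loci. The list had a median difference of 0.51, with 6 genes called up without 4 h replicate 1. It holds no member only because CYCB1;3, which met the rule with 0.78 ± 0.12 at 4 h, was left out by name.

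dNK, a deoxynucleoside kinase that salvages precursors of DNA, was 0.85 ± 0.10 above mock. The arrays gave dNK (AT1G72040) levels of 7.23, 7.18 and 7.07 in mock, 7.33, 7.21 and 7.33 at 1 h and 8.13, 8.09 and 7.81 at 4 h. All 4 h arrays lay above all 1 h arrays by a wide margin. Thymidine kinase TK1b rose by 0.87 ± 0.13 and was 0.33 above mock at 1 h, past the limit for members. TK1a, at -0.21, was not called. RIP5, which binds ROP GTPases, was 0.75 ± 0.14 above mock. Its relative RIP2 rose by 0.82 ± 0.14 and RIP3 fell by 0.56 ± 0.11, while RIP4, at -0.06, and ICR1, at 0.29, were not called. At 1 h RIP2 was 0.40 above mock, also past the limit for members. iqd8, a calmodulin-binding IQ-domain protein, was 0.74 ± 0.11 above mock.

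Metabolic and stress genes made up 8 of the members given a role. GSTF9 encodes a phi class glutathione transferase, an enzyme that conjugates glutathione to other molecules. GSTF9 (AT2G30860) had log2 levels of 12.14, 12.16 and 12.04 in mock, 12.33, 12.28 and 12.43 at 1 h and 13.40, 12.98 and 12.98 at 4 h. No array of 1 group overlapped another group, and the 4 h difference was 1.01 ± 0.12. The other 7 phi class genes looked at were not called, with GSTF10 at -0.07 and GSTF8 at -0.04. In mock, GSTF5, GSTF11, GSTF12 and GSTF14 had means of 2.92, 3.25, 3.29 and 3.36, below the first quartile over all loci of 3.59. For these genes the lack of a call says little. CYP705A12, a cytochrome P450, lies in the gene cluster that makes the triterpene marneral. In mock CYP705A12 (AT5G42580) was at 5.75, 5.78 and 5.43, at 1 h at 5.80, 5.86 and 5.55 and at 4 h at 7.03, 6.59 and 5.99. Replicates 1 and 2 at 4 h were clearly above the 1 h arrays and replicate 3 slightly so. It was 0.88 ± 0.22 above mock, and its cluster partners CYP71A16 and MRN1 differed by 0.10 and -0.04 and were not called.

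ERD10 encodes a dehydrin, a protein that accumulates under drought and cold. ERD10 (AT1G20450) measured 11.94, 12.14 and 12.30 on the mock arrays, 12.86, 12.14 and 11.92 at 1 h and 13.22, 13.16 and 12.60 at 4 h. Its 1 h replicate 1 lay above 4 h replicate 3, so these groups overlapped, and the difference from mock was 0.87 ± 0.23. The dehydrins COR47, at 0.58 (adjusted p 0.0562), and ERD14, at 0.03, were not called. TAT3, a tyrosine aminotransferase used as a marker of jasmonate and wounding, was 0.79 ± 0.23 above mock and not called. The arrays gave TAT3 (AT2G24850) levels of 10.71, 10.84 and 10.76 in mock, 11.30, 10.73 and 10.36 at 1 h and 11.76, 11.80 and 11.12 at 4 h. The 1 h replicate 1 lay above 4 h replicate 3. The 13 measured loci of the wound and stress list, TAT3 among them, had 0 called either way by limma, against 10.8% of all loci. Their median difference was -0.04, and 2 had an unadjusted limma p under 0.05. The core clock list of 9 measured loci also had 0 called by limma. Its median difference was 0.19, and 1 locus had an unadjusted limma p under 0.05. In lists this short, 0 calls lie near the share of all loci, and nothing is read from them. PAP10, a secreted acid phosphatase, was 0.80 ± 0.11 above mock, the beta-amylase BAM2 0.76 ± 0.09 and SIP2, of the raffinose family sugar enzymes, 0.71 ± 0.17. ASA1 catalyses the first step of tryptophan synthesis, a route that also feeds auxin. ASA1 (AT5G05730) had log2 levels of 8.84, 8.90 and 8.79 in mock, 9.35, 9.11 and 8.89 at 1 h and 9.66, 9.70 and 9.36 at 4 h. The 1 h replicate 1 nearly reached 4 h replicate 3. It was 0.73 ± 0.13 above mock, and ASA2, TRP1 and TSA1 of the same pathway rose by 0.43 ± 0.09, 0.69 ± 0.07 and 0.66 ± 0.13. At 1 h TRP1 was already 0.44 above mock, past the limit for members, and ASA2 and TSA1 were 0.19 and 0.25 above it.

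Of the 19 related genes called at 4 h against mock, 4 were not called without 4 h replicate 1, namely RGF4, NUC-L1, STRS1 and BUB3.1, as was RGL2 of the gibberellin list.

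**Figure D4:**
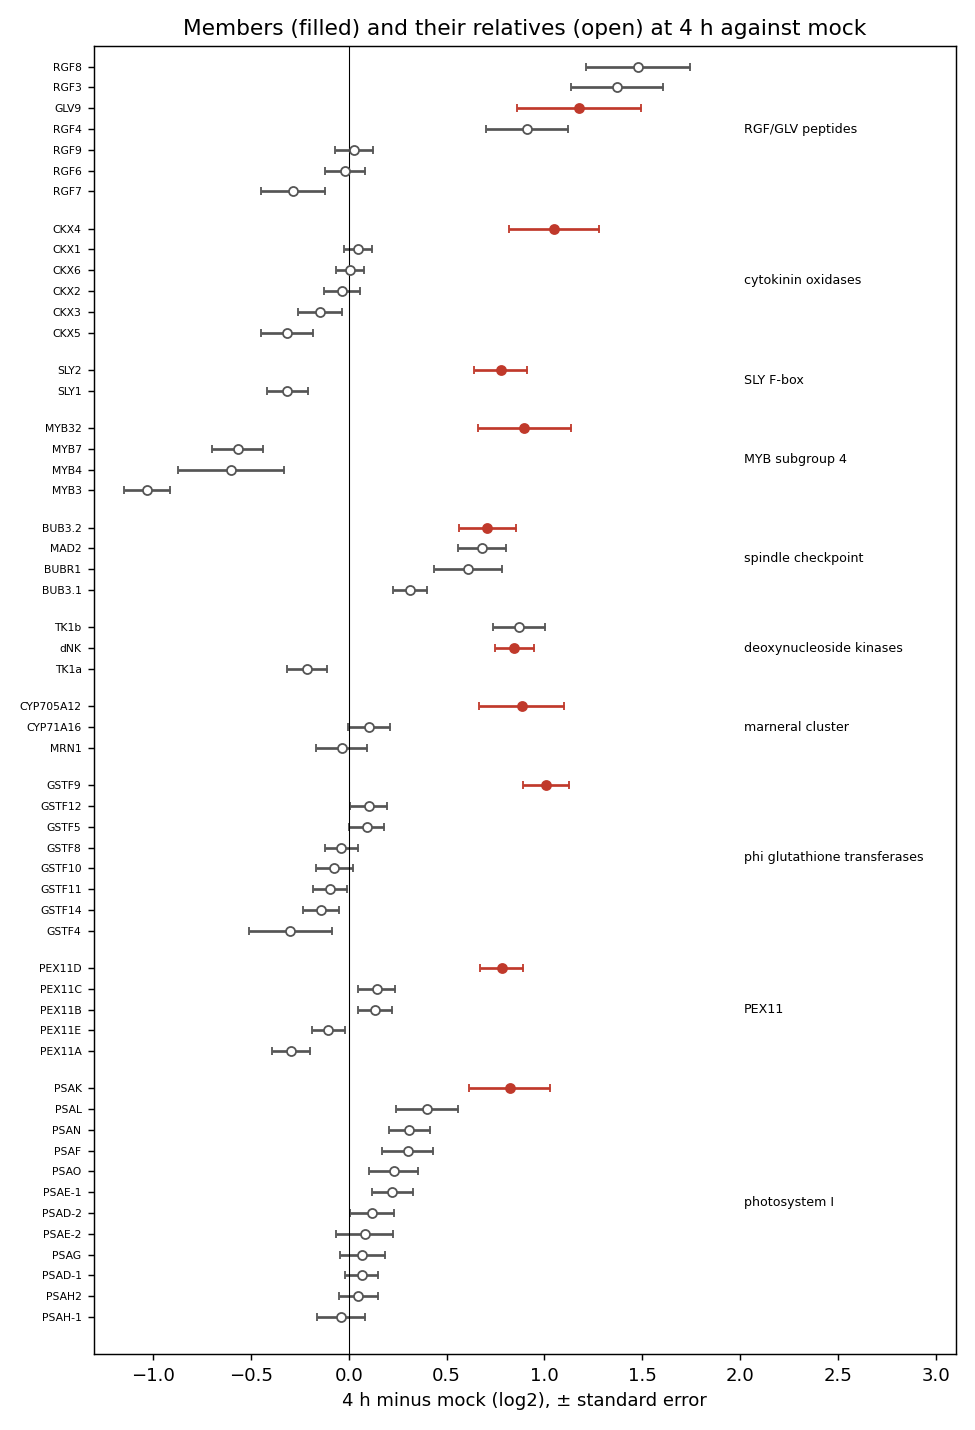
The 4 h minus mock difference (log2) with its standard error for members (filled) and related genes (open), in 10 families or pathways. GLV9, BUB3.2 and dNK each had at least 1 relative that rose, whereas CKX4, SLY2, MYB32, CYP705A12, GSTF9, PEX11D and PSAK stand above relatives of which none was called up.

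Members with no symbol in the gene table numbered 35 and held the largest difference of all. In mock AT3G48450 was at 4.40, 4.47 and 4.19, at 1 h at 4.82, 4.33 and 3.99 and at 4 h at 6.04, 5.82 and 5.03. Replicates 1 and 2 at 4 h stood far above the other 7 arrays, replicate 3 less so, and the 1 h arrays spanned mock. The difference was 1.28 ± 0.26, and the locus next to it in the gene order, AT3G48460, rose by 1.95 ± 0.30 with 0.51 at 1 h. Of the other large ones, AT1G78210 was 1.09 ± 0.27 above mock, AT5G01670 1.04 ± 0.28, AT2G43535 0.99 ± 0.12, AT4G29690 0.98 ± 0.10, AT2G42110 0.98 ± 0.17 and AT5G44720 0.94 ± 0.21. AT1G78210 measured 8.65, 9.04 and 9.07 on the mock arrays, 9.65, 9.17 and 8.69 at 1 h and 10.39, 10.19 and 9.45 at 4 h. The arrays gave AT5G01670 levels of 4.05, 3.82 and 4.03 in mock, 4.15, 4.03 and 4.15 at 1 h and 5.79, 4.94 and 4.29 at 4 h. In AT1G78210 the 1 h replicate 1 exceeded 4 h replicate 3, and in AT5G01670 the 4 h arrays ranged from near the 1 h level to far above it. Without 4 h replicate 1 the difference was 0.91 for AT1G78210 and 0.65 for AT5G01670, and neither was called. AT2G43535 had log2 levels of 6.86, 7.15 and 7.16 in mock, 7.05, 7.32 and 7.38 at 1 h and 8.17, 7.92 and 8.03 at 4 h. In mock AT4G29690 was at 8.31, 8.33 and 8.46, at 1 h at 8.53, 8.72 and 8.60 and at 4 h at 9.51, 9.17 and 9.36. Both showed 4 h arrays close together and apart from the other 6. ORG4, emb2726 and EMB2777 carry symbols without a role used here and were 0.82 ± 0.17, 0.71 ± 0.13 and 0.71 ± 0.09 above mock.

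Members were scattered over the genome. The 5 chromosomes held 15, 14, 17, 12 and 18 of them in order, and no member was the neighbour of another in the gene order. Among 127 measured neighbours, 7 were called up at 4 h, or 5.51%, close to the 5.53% of all loci, and 3 down. Mean mock levels of members ran from 3.34 to 12.13 with a median of 6.65, where all loci had a median of 5.74 and quartiles of 3.59 and 7.72. Only 1 member, AT5G42700, lay below the first quartile and 19 above the third. Of 32 gene families searched by symbol, the MYB, GRAS, cytochrome P450 and glutathione transferase families held 1 member each. BAM2 and SIP2 matched the receptor-like kinase and aquaporin patterns by shared symbols alone, and the other 26 patterns matched no member. GLV9, listed under its GOLVEN symbol, was not matched by the RGF pattern although it belongs to that peptide family.

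Loci on both sides of the limits were alike in size. Just inside 0.7 at 4 h lay AT4G35030 and AT4G28450, at 0.70 each, and BUB3.2 at 0.71, and just outside lay PRMT3, AT5G64680 and FLN2, at 0.70 each to 2 decimals. At the 1 h limit of 0.3, APG3 and AT5G58370 lay inside with 0.30 each, while CXE12, RHS13 and TOM7-2 lay outside with 0.30, 0.30 and 0.31. RHS13 differed from mock by 1.15 ± 0.19 at 4 h, more than all members but 2.

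How many loci met the rule depended on single arrays. Without 4 h replicate 1 it was met by 39 loci, 36 of them members, and without 4 h replicate 3 by 295, with 75 members. Leaving out 4 h replicate 2 gave 117, and leaving out mock replicates 1, 2 and 3 in turn gave 103, 62 and 81. Leaving out 1 h replicates 1, 2 and 3 in turn gave 82, 70 and 75. Whichever single array was left out, 13 members met the rule each time: AT3G48450, GSTF9, AT2G43535, AT2G42110, EMB3108, AT3G59670, AT5G05180, TOC64-V, AT5G59240, dNK, AT3G57160, NAF1 and AT3G53940.

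**Figure D5:**
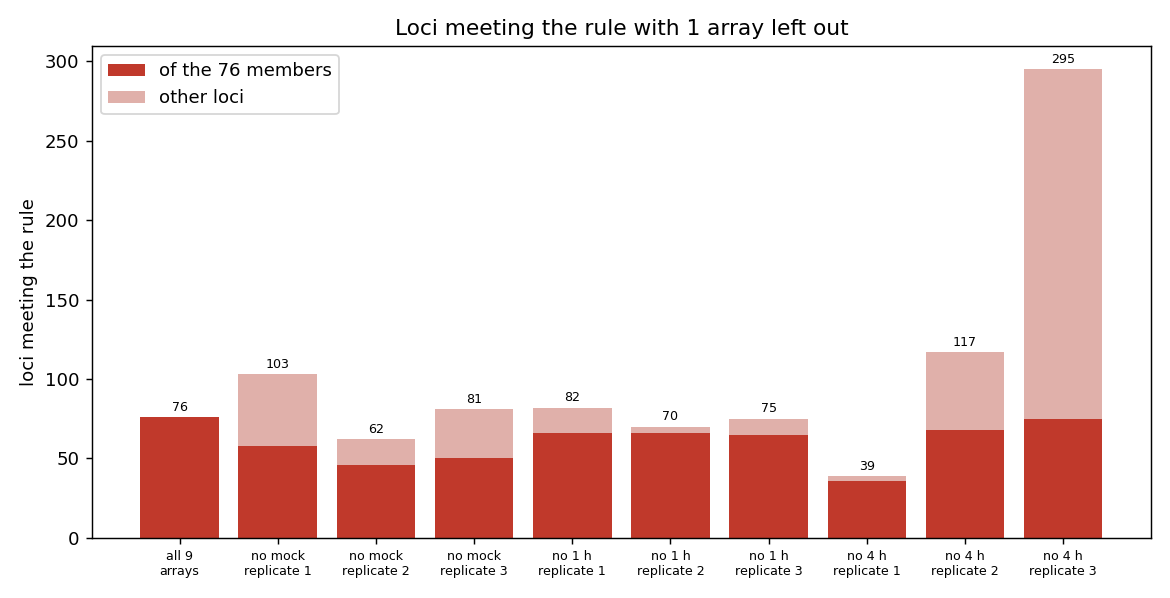
Bars give the number of loci meeting the rule with all 9 arrays and with each array left out, split into the 76 members (dark) and other loci (light). The number ran from 39 without 4 h replicate 1 to 295 without 4 h replicate 3.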

How the data were processed

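The 9 arrays fell into mock, 1 h and 4 h with 3 arrays each. The deposited table gives log2 levels that the authors obtained with RMA, and the submitters' processing notes list limma 3.24.15 besides. The labels name no array type, probe set definition or genome build, so probes shared by close paralogs or overlapping genes cannot be recognised. Of 21494 probe sets, 64 controls were left out. The values were used as deposited, and limma 3.58.1 in R 4.3.3 (lmFit, eBayes, no covariates) was fitted to all 9 arrays and 21430 loci. It was tested on simulated data. The labels call the arrays biological replicates, and their number limits the precision.

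Symbols came from the RefSeq TAIR10.1 gene table, which held 21231 of the loci and 75 of the 76 members. The members, 10 lists, 32 symbol families and related genes were chosen with earlier results of these data known. The rule named the 12 largest members, those at the limits, list members, and up to 3 per family and role group. Members named beyond it, and all related genes, were chosen after their values were seen. Replicate numbers were not used to pair the arrays. Alternatives were other normalizations and limits, no dim loci (below the 40th percentile), other eBayes settings, array weights, 2 groups only, a replicate block and leaving out each array.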

Additional observations from a re-analysis of the deposited data

Results flagged for a closer look

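The poly-A control RNAs, which are outside the comparisons of the loci, had a mean log2 level of 8.79 on replicate 1 at 4 h, above the 6.26 to 6.47 of the mock arrays. The same array was the highest of the 4 h arrays for 53 of the 76 members.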

How the results depend on the processing

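The members' median difference at 4 h was 0.78 and stayed between 0.69 and 0.84 with single arrays left out. The rule gave 76 loci, 39 to 295 with single arrays left out, 215, 32 and 6 with a 4 h minimum of 0.6, 0.8 and 1, and 37 and 115 with a 1 h limit of 0.2 and 0.4. Members called at 4 h numbered 72, and 45 (without mock replicate 2) to 75 with single arrays left out. Loci called at 4 h against mock numbered 2305, 688 to 4153 with single arrays left out and 1067 with only those groups. At 1 h the count was 40, 6 to 61 with single arrays left out, 79 with array weights and 65 with only those groups. For 4 h against 1 h it was 397, 3 to 2808 with single arrays left out, 1699 with array weights and 4 with only those groups. The causes were not tested. Of 836 recomputed differences of single members, 0 moved beyond their spread or changed sign, and they ran from 0.40 to 1.58. With an array left out neither outcome was possible. The mean of a group then shifts by less than its SD, and the rule kept all 4 h arrays above mock. Nothing is therefore read from this count about how far the differences depend on single arrays.

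Same-numbered arrays correlated between -0.13 and 0.27 in their deviations and 5 of 9 correlated best with their own number. With so few arrays this neither shows nor excludes a pairing by number. With the replicate block 73 members and 2340 loci were called at 4 h.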
